A study of Mus musculus with 6 samples.

Results

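The Fanconi and homologous recombination genes form one DNA repair network. They were followed here in mouse blood stem cells after treatment with granulocyte colony-stimulating factor (G-CSF), a cytokine that drives neutrophil production and releases stem cells from the marrow. The 31 genes were chosen by name for their role in this network. Of these, 29 had a probeset with 1 gene symbol, and 26 of the 29 passed the filter on dim probesets and entered the fit over 14994 genes. Fancb, Fancd2 and Rad51c lay below the filter's limit of 5.152 (mean log2 intensity over the 6 arrays), and Xrcc2 and Rbbp8 are not analysed here. RNA came from KSL SLAM cells of bone marrow, a fraction enriched in blood stem cells and sorted as lineage-negative, c-Kit+, Sca-1+, CD150+, CD48- and CD41-. Mice received G-CSF at 125 mcg/kg, injected under the skin 2 times per day, or PBS (saline), for 7 days. Each group had 3 MoGene 1.0 ST arrays, and each array stood for an independent pool of 5 to 10 mice, so the spread between mice of a pool is not seen. The labels used here give no strain, age or sex, and both groups differ by the injected agent alone as far as they say.

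Fanconi genes are known from an inherited bone marrow failure syndrome, and blood stem cells are known to depend on them. A core complex of FANC proteins attaches ubiquitin to the FANCD2-FANCI pair where a DNA crosslink stalls a replication fork, and this mark recruits the nucleases that unhook the crosslink. The broken end is then trimmed by the MRE11-RAD50-NBN complex, and BRCA1, PALB2, BRCA2 and further proteins help to copy the lost sequence from the sister chromatid. ATM and ATR sense the damage and act through the kinases CHEK2 and CHEK1. Many of these genes are transcribed mainly in dividing cells.

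No change of these genes with G-CSF was detected. By limma, 0 of the 26 members were higher and 0 were lower at a Benjamini-Hochberg adjusted p under 0.05, where 0.0267% of all fitted genes were higher and 0% were lower. At an unadjusted p under 0.05, 0 members were higher and 0 were lower, beside 2.73% and 3.3% of all genes. The smallest unadjusted p of a member was 0.133 (Rad50), and the adjusted p of the 26 ran from 0.932 to 0.999. The G-CSF arrays were all higher than the PBS arrays in 1 member (Fance) and all lower in 1 (Fancg), while 5.77% of all genes were separated upward and 5.05% downward. For any gene without overlap, the exact two-sided permutation test gives p = 0.1, the smallest p that 3 against 3 arrays allow. This p therefore only restates that the groups of these 2 members did not overlap.

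The members' differences ran from -0.59 to 0.21 on the log2 scale (G-CSF minus PBS), with 11 positive and 15 negative and a median of -0.05. Over all fitted genes the median was 0.00. The median size regardless of sign was 0.17 for the members and 0.16 for all genes. The precision bounds what could be seen. In 20 of the 26 members the 95% interval of the difference lay within 1 on either side of 0, so a 2-fold change lay outside it. In 5 members, namely Fancl, Usp1, Nbn, Blm and Chek2, the interval reached a 2-fold lower level. In Chek1 it reached a 2-fold higher level.

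**Figure D1:**
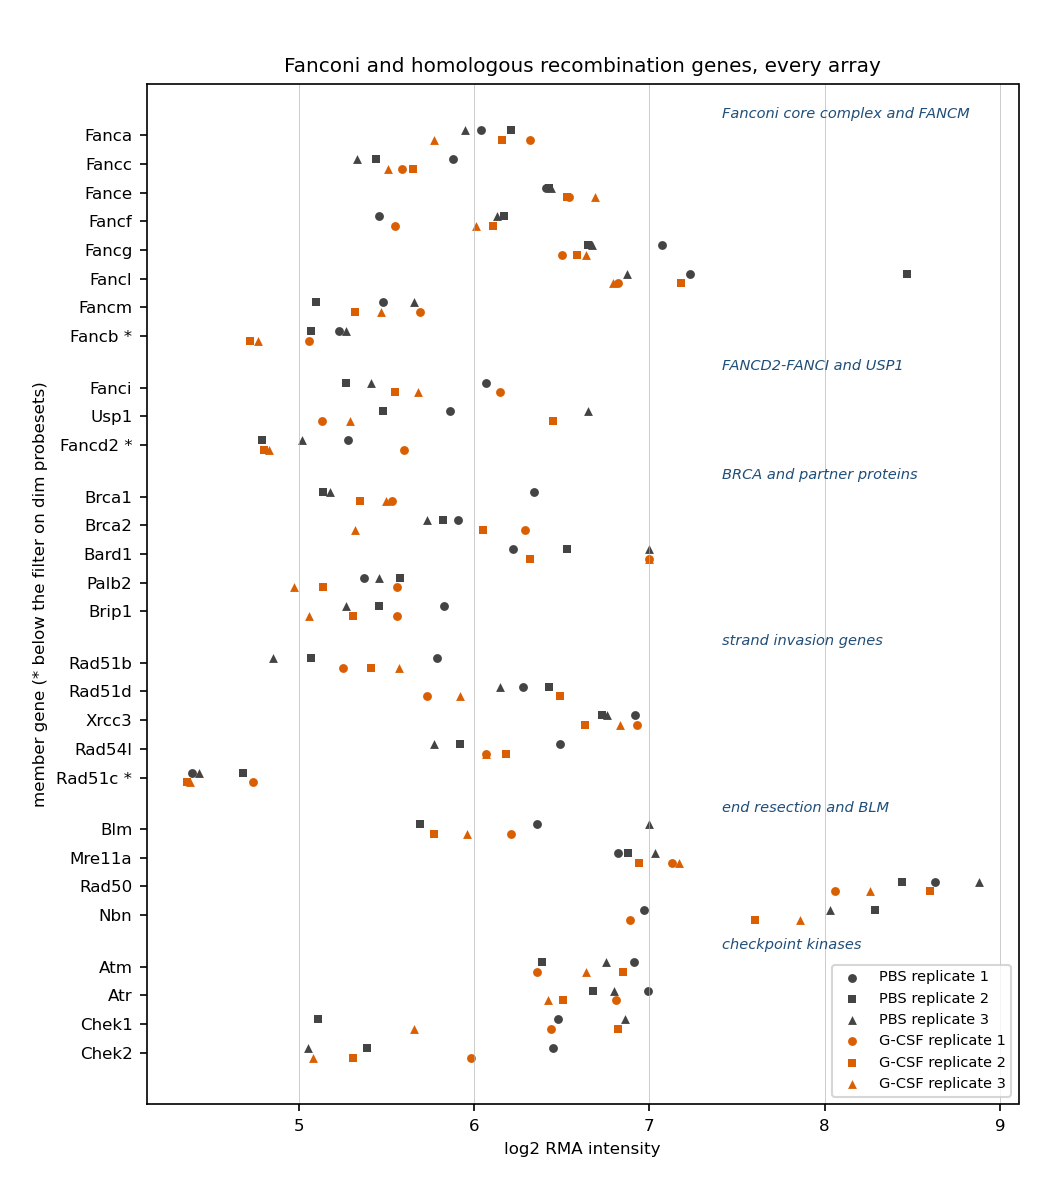
Log2 RMA intensity (horizontal axis) of each measured member in the 6 arrays, with genes grouped by role, PBS arrays in grey and G-CSF arrays in orange, and replicates 1, 2 and 3 as circles, squares and triangles. The groups overlap in most genes, as in Brca1, where PBS replicate 1 at 6.34 stands above all other arrays; a position on the axis is not comparable between genes.

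The promoters of 4 members are shown because these genes had either a small unadjusted p (Fancl and Atr, next after Rad50) or groups that did not overlap (Fancg and Fance, added after their values were seen). Each is the 250 bases before the gene's start, 5′ to 3′ on the gene's own strand, from RefSeq on GRCm38.p6. The stretches are chr11:26386834-26387083 (plus strand) for Fancl, chr9:95857347-95857596 (plus strand) for Atr, chr4:43010302-43010551 (minus strand) for Fancg and chr17:28313280-28313529 (plus strand) for Fance. Capitals mark matches, on either strand, to any of 5 motifs. The E2F motif of replication genes was searched as TTTCCCGC or TTTCGCGC or TTTGCCGC or TTTGGCGC. The CHR motif of late cell cycle genes was searched as TTTGAA and also, in its other common spelling, as TTCGAA. The CCAAT box, bound by the factor NF-Y, was searched as those same 5 letters. For the STAT motif, which G-CSF receptor signalling acts on, the letters were TTCNNNGAA. The GC box, bound by SP1 and related factors, was searched as GGGCGG. A base can belong to more than one motif.

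Fancl: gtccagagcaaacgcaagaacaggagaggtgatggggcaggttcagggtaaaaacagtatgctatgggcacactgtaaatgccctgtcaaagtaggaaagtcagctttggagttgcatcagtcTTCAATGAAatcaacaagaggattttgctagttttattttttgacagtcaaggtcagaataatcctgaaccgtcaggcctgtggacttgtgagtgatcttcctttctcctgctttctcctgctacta

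Atr: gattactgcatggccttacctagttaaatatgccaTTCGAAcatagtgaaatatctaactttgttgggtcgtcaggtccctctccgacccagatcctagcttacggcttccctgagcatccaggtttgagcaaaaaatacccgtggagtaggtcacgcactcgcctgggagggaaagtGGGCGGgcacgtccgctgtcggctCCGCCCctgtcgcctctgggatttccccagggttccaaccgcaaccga

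Fancg: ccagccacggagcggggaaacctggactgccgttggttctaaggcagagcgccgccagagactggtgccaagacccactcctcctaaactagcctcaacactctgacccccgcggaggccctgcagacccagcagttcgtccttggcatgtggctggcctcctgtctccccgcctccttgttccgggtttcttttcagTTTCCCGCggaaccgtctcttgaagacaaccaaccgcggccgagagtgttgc

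Fance: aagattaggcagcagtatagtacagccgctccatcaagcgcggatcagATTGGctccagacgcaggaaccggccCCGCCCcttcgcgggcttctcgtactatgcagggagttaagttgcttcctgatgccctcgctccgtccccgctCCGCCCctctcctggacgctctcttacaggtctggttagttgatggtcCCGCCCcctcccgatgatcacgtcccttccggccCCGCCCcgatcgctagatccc

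The Fancl stretch held 1 STAT match, 127 bases before the start, and the Atr stretch 1 CHR match and 2 GC boxes. The Fancg stretch held 1 E2F match, TTTCCCGC, 52 bases before the start. The Fance stretch held 1 CCAAT box and 4 GC boxes. Promoters were listed for 24 of the 29 measured members. E2F letters were found in 4 of the 24 (16.7%, in Bard1, Brca2, Chek2 and Fancg) and in 1.91% of the 27025 promoters in the table. CCAAT boxes were found in 15 members (62.5%, against 34.5% of all promoters) and GC boxes in 15 (62.5%, against 32.9%). STAT letters were found in 3 members (12.5%, in Fancb, Fancl and Rad54l, against 7.18%). CHR letters were found in 2 (8.33%, in Atr and Bard1, against 17.4%). The 27025 promoters also cover genes outside the 19938 that had a probeset with 1 symbol, so the shares compare unlike sets. A match describes the letters only.

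No change was detected in the Fanconi core complex, the ubiquitin ligase of the pathway. Of its 8 members, counting the DNA translocase gene Fancm that anchors it, 7 were fitted, with differences from -0.59 to 0.16 and a median of 0.01. In 2 of the 7 (28.6%, against 10.8% of all genes) the groups did not overlap, in 1 upward and in 1 downward. Fancl encodes the RING subunit that carries the ligase activity. Its log2 intensity was 7.23, 8.47 and 6.87 in the PBS arrays and 6.82, 7.18 and 6.79 in the G-CSF arrays. PBS replicate 2 stood alone at the top, PBS replicate 1 lay just above the highest G-CSF array, and PBS replicate 3 lay within the G-CSF range. The difference of -0.59 (SE 0.40, 95% interval -1.53 to 0.34, limma adjusted p = 0.94) was the most negative of the members. With an array left out it ran from -0.92 (without PBS replicate 3) to -0.12 (without PBS replicate 2).

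Fancg encodes a scaffold subunit. Its values were 7.07, 6.65 and 6.67 with PBS and 6.50, 6.59 and 6.64 with G-CSF. The groups did not overlap, but the highest G-CSF array and the lowest PBS array lay next to each other. The difference was -0.22 (SE 0.17, adjusted p = 0.961), and -0.087 without PBS replicate 1. Fance encodes the subunit that contacts FANCD2. It read 6.41, 6.43 and 6.44 with PBS and 6.54, 6.53 and 6.69 with G-CSF, the tightest of the members. Its difference of 0.16 (SE 0.14, 1.12-fold, 95% interval 0.889-fold to 1.41-fold, adjusted p = 0.966) left a gap between the highest PBS and the lowest G-CSF array.

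The other core genes had intervals on both sides of 0. Fanca, the subunit gene most often mutated in patients, differed by 0.013 (SE 0.19), Fancc by 0.034 (SE 0.19), Fancf by -0.030 (SE 0.25) and Fancm by 0.080 (SE 0.20). Fancf was low in replicate 1 of both groups, at 5.46 with PBS and 5.55 with G-CSF, against 6.01 to 6.17 in the other 4 arrays. Fancb, another core subunit gene, was below the filter. Its values were 5.23, 5.07 and 5.27 with PBS and 5.06, 4.72 and 4.77 with G-CSF. The groups were separated only narrowly, and 4 of the 6 arrays lay under the filter's limit. In the fit with no filter it differed by -0.34 (SE 0.16, unadjusted p = 0.0721, adjusted p = 0.976).

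**Figure D2:**
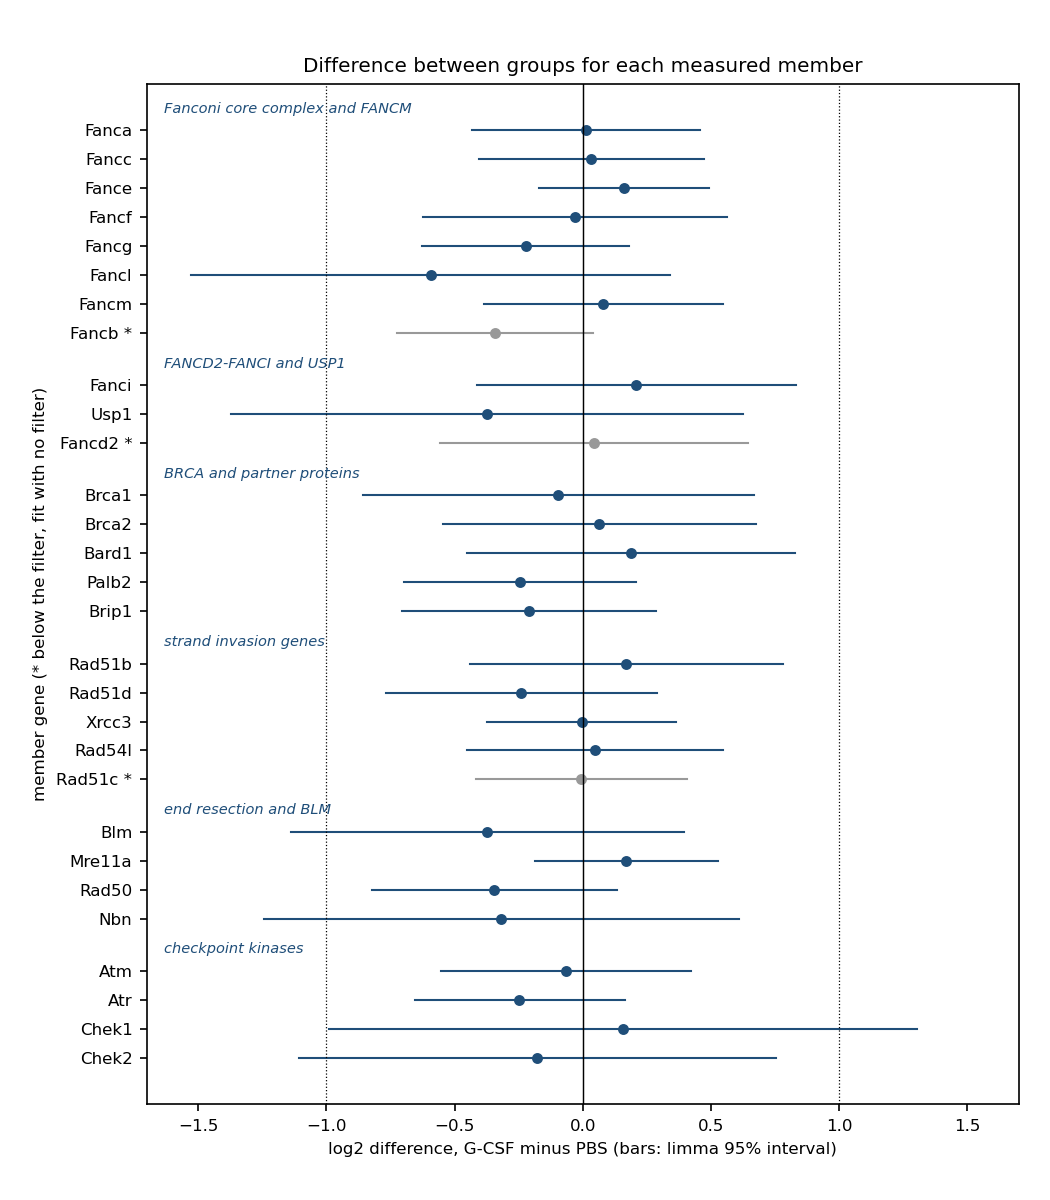
Log2 difference, G-CSF minus PBS (horizontal axis), for each of the 29 measured members, with points for the limma estimate, bars for its 95% interval and dotted lines at a 2-fold change. Every interval spans 0, and grey marks the 3 genes below the filter (from the fit with no filter).

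FANCD2 and FANCI are the pair that receives ubiquitin, and USP1 is the enzyme that removes it. Fanci read 6.07, 5.27 and 5.41 with PBS and 6.15, 5.55 and 5.68 with G-CSF. Replicate 1 was the highest array in both groups, and the difference of 0.21 (SE 0.27, adjusted p = 0.966) was the most positive of the members. It was 0.45 when PBS replicate 1 was left out. When G-CSF replicate 1 was left out it was 0.031, and Rad51b was the most positive. Fancd2, below the filter, had the same shape, at 5.28, 4.79 and 5.02 with PBS and 5.60, 4.80 and 4.83 with G-CSF. It differed by 0.044 (SE 0.26) in the fit with no filter. Usp1 was at 5.86, 5.48 and 6.65 with PBS and 5.13, 6.45 and 5.29 with G-CSF. Both groups spanned more than 2-fold, and the difference was -0.37 (SE 0.42, 95% interval -1.37 to 0.63). It ran from -0.79 without G-CSF replicate 2 to -0.045 without PBS replicate 3.

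The BRCA genes did not differ beyond the spread between arrays either, with a median difference of -0.09 over the 5. BRCA1 and BARD1 form a ubiquitin ligase that promotes end resection. Brca1 was at 6.34, 5.14 and 5.18 with PBS and 5.53, 5.35 and 5.50 with G-CSF. PBS replicate 1 was above all other arrays, while the other 2 PBS arrays were below all G-CSF arrays. The difference was -0.095 (SE 0.32, adjusted p = 0.998), and 0.30 without PBS replicate 1. Bard1 differed by 0.19 (SE 0.27), with 0.009 when PBS replicate 1 was left out and 0.41 when G-CSF replicate 2 was. Its 2 dimmer probesets differed by 0.18 and 0.24, in the same direction.

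PALB2 joins BRCA2 to BRCA1. Brca2 read 5.91, 5.82 and 5.73 with PBS and 6.29, 6.05 and 5.32 with G-CSF, and differed by 0.065 (SE 0.26). The G-CSF arrays lay on both sides of the PBS arrays. Palb2 differed by -0.25 (SE 0.19), with 2 G-CSF arrays under the filter's limit. Brip1, a helicase gene of the BRCA1 complex, differed by -0.21 (SE 0.21). Neither was close to the threshold, at adjusted p = 0.963 and 0.966.

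Rad51b, Rad51c, Rad51d, Xrcc3 and Rad54l encode proteins that act around strand invasion, and RAD54 remodels DNA during that step. Rad51b was at 5.79, 5.07 and 4.85 with PBS and 5.25, 5.41 and 5.57 with G-CSF, with a difference of 0.17 (SE 0.26). PBS replicate 1 was above all G-CSF arrays and the other 2 PBS arrays were below them. Rad54l had the same arrangement, at 6.49, 5.92 and 5.77 against 6.07, 6.18 and 6.07, and differed by 0.048 (SE 0.21). Rad51d differed by -0.24 (SE 0.22), with -0.46 when G-CSF replicate 2 was left out and -0.080 when G-CSF replicate 1 was. Xrcc3 differed by -0.004 (SE 0.16). Xrcc3 is thus bounded closely, between 0.772-fold and 1.29-fold. Rad51c was under the filter's limit in all 6 arrays, between 4.36 and 4.74.

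No end resection gene passed either, and their median difference was -0.33 over 4 genes. That median was the most negative of the 6 roles with all arrays, but this depended on single arrays. Leaving out PBS replicate 2 gave -0.25, PBS replicate 3 gave -0.12, and G-CSF replicate 1 gave -0.13, and in these it was the third of the 6. It stayed the most negative without PBS replicate 1 (-0.36), G-CSF replicate 2 (-0.33) or G-CSF replicate 3 (-0.34). With the mean over all probesets of a gene it was -0.18. RAD50 and MRE11 hold and cut the broken end. Rad50 read 8.63, 8.44 and 8.88 with PBS and 8.06, 8.60 and 8.26 with G-CSF. G-CSF replicate 2 lay within the PBS range and the other G-CSF arrays below it. The difference was -0.34 (SE 0.20, 0.787-fold, 95% interval 0.565-fold to 1.10-fold, adjusted p = 0.932). Mre11a went the other way by 0.17 (SE 0.15), from 6.82, 6.88 and 7.03 to 7.13, 6.94 and 7.17, with overlap.

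Nbn encodes the third subunit, which recruits ATM. The brighter of its 2 probesets stood for it and read 6.97, 8.29 and 8.03 with PBS and 6.89, 7.60 and 7.86 with G-CSF. Replicate 1 was the lowest in both groups, and the difference was -0.32 (SE 0.39). It was -0.71 when PBS replicate 1 was left out and -0.038 when G-CSF replicate 1 was. The dimmer probeset differed by 0.29, with 5.61, 6.12 and 6.04 against 6.17, 6.20 and 6.25 and no overlap. The 2 probesets of this gene therefore disagree in direction. Blm, the helicase gene of Bloom syndrome, was at 6.36, 5.69 and 7.00 with PBS and 6.21, 5.77 and 5.96 with G-CSF. It differed by -0.37 (SE 0.33), and PBS replicate 2 was the lowest of all 6 arrays. Without that array the difference was -0.70, and without PBS replicate 3 it was -0.046.

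The kinases that signal damage were likewise not separated. Atr, the kinase gene for stalled forks, read 6.99, 6.68 and 6.80 with PBS and 6.81, 6.51 and 6.42 with G-CSF. Of the G-CSF arrays, 1 lay within the PBS range, and the difference was -0.25 (SE 0.17, adjusted p = 0.948). Atm, the kinase gene for double-strand breaks, differed by -0.066 (SE 0.21). Chek1 ranged most within the groups, at 6.48, 5.11 and 6.86 with PBS and 6.44, 6.82 and 5.66 with G-CSF. Its difference of 0.16 had an SE of 0.49, so a change of 2-fold upward lay inside its interval of -0.99 to 1.31. Chek2 was at 6.45, 5.39 and 5.05 with PBS and 5.98, 5.31 and 5.08 with G-CSF, and differed by -0.18 (SE 0.40). Replicate 1 was the highest of each group.

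PBS replicate 1 stood above the other PBS arrays in several members, a pattern noticed after the values were seen. It was the highest PBS array in 12 of the 26 members (46.2%, against 30.2% of all genes). In Fanci, Brca1, Rad51b, Rad54l and Chek2 it stood more than 0.5 above both other PBS arrays (19.2% of members, against 3.55% of all genes). Replicate 1 was the highest array of both groups in 7 members (26.9%, against 12.7% of all genes). Without PBS replicate 1 the members' median difference was 0.03 in place of -0.05, with 15 positive and 11 negative. Then 6 members were separated upward and 3 downward, 9 of the 26. Fanci, Brca1, Rad51b and Rad54l were among the 6. This array was picked after its high values in them were seen, so the shift upward follows partly from that choice. Over all genes, 22.4% were separated in either direction with 2 arrays against 3. That share was not split by direction, so the counts of 6 and 3 have no share of their own beside them. The members' SD within groups ran from 0.06 (Fance) to 0.77 (Chek1), with a median of 0.28 beside 0.26 over all genes.

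**Figure D3:**
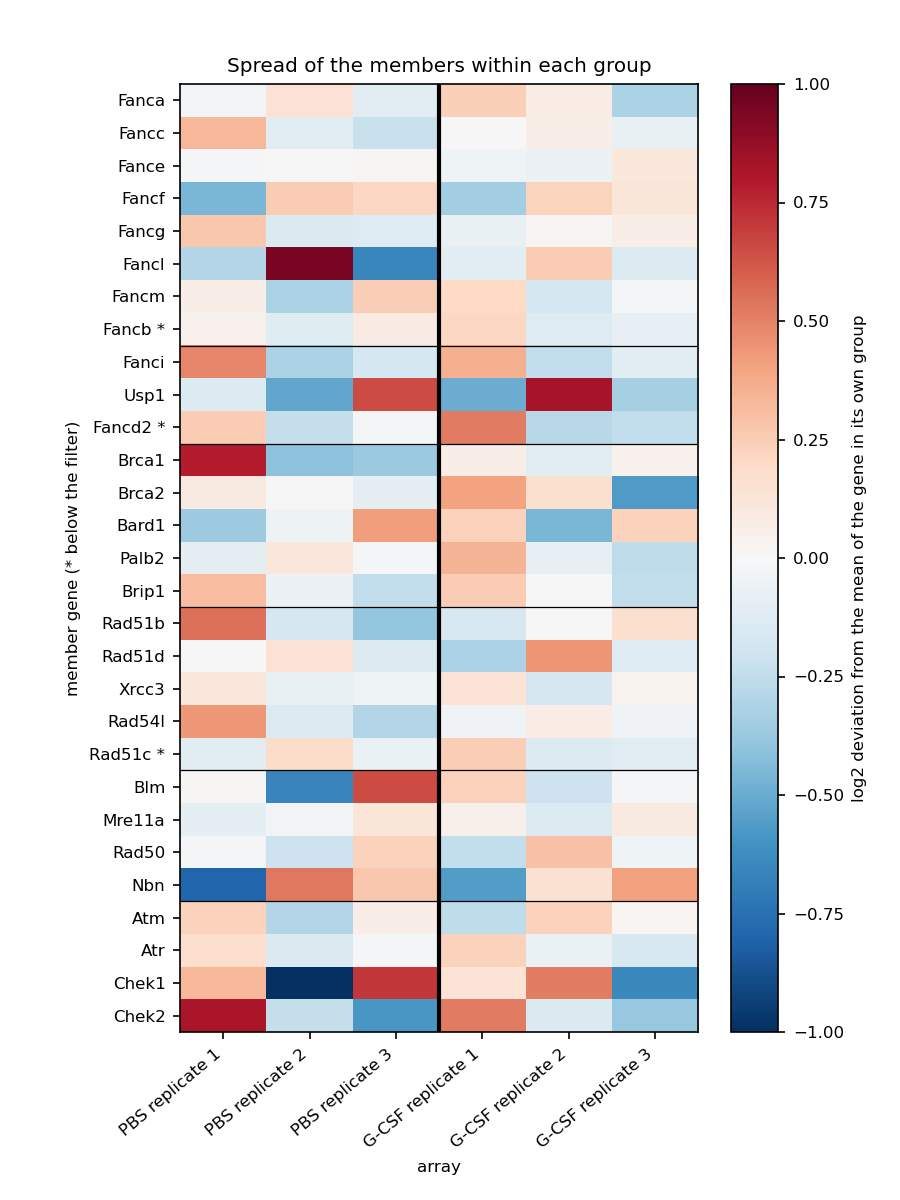
Deviation of each array (columns) from the mean of the gene in its own group, on the log2 scale, for the 29 measured members (rows, in blocks by role), red for higher and blue for lower, with colours ending at 1 either way. PBS replicate 1 is red in Brca1, Chek2, Fanci, Rad51b and Rad54l, and the darkest cells are Chek1 and Fancl in PBS replicate 2.

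Nor was a change detected in the rest of the repair network. Of 75 further genes of the Fanconi pathway, of homologous recombination and of the damage checkpoint, 68 were fitted, and 0 were higher and 0 lower at an unadjusted p under 0.05 by limma. Their median difference was -0.01, with 34 positive and 34 negative. In the Fanconi list the smallest p in each direction belonged to Eme1, a subunit of the MUS81 nuclease (0.35, SE 0.16, adjusted p = 0.855), and Dclre1a, a crosslink repair nuclease (-0.51, SE 0.28). In the recombination list these were Gen1, a Holliday junction resolvase (0.67, SE 0.40), and Sfr1 (-0.46, SE 0.29). In the checkpoint list they were the phosphatase Cdc25c (0.32, SE 0.18) and Hus1, a subunit of the 9-1-1 clamp (-0.58, SE 0.30). Of 10 end joining genes, which serve the competing route of break repair, 9 were fitted, with a median of 0.00 and 0 at that p in either direction. Their smallest p in each direction belonged to Nhej1 (0.31, SE 0.35) and to Xrcc5, which encodes Ku80 (-0.57, SE 0.31).

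Lists of cell cycle genes and of cell type markers were read in the same arrays. The array means of the members were 6.40, 6.18 and 6.30 with PBS and 6.23, 6.26 and 6.12 with G-CSF, so the groups overlapped. The S phase list (33 genes fitted) had a median difference of 0.03, and 0 genes reached an unadjusted p under 0.05. Its smallest p in each direction belonged to the licensing factor gene Cdt1 (0.39, SE 0.22) and to Mcm2 (-0.26, SE 0.17), a subunit of the replicative helicase. The G2/M list (31 genes) had a median of 0.31. At an unadjusted p under 0.05 by limma, 8 of its genes were higher and 0 lower, beside 2.73% and 3.3% of all genes. None of the 8 passed after adjustment. The spindle checkpoint kinase gene Bub1 differed by 1.20 (SE 0.23, adjusted p = 0.266) and the proliferation marker Mki67 by 1.08 (SE 0.30), while Mybl2 had the smallest p among the negative ones (-0.33, SE 0.24). Its array means ran from 6.08 to 6.32 with PBS and from 6.58 to 6.64 with G-CSF. No test compared the members with this list.

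Mature neutrophil markers had array means of 7.76 to 8.78 with PBS and 9.81 to 10.51 with G-CSF, and in 14 of 15 markers the G-CSF arrays were all higher. Granulocyte-monocyte progenitor markers ran from 6.28 to 6.56 with PBS and from 7.28 to 8.09 with G-CSF, with 8 of 10 separated upward. Blood stem cell markers ran from 8.37 to 8.54 and from 7.88 to 8.22, with 2 of 9 fitted genes, Kit and Tek, separated downward. Megakaryocyte markers ran from 6.57 to 6.83 and from 5.74 to 5.96, with 2 of 6 fitted genes, Pf4 and Mmrn1, separated downward. All 6 differences were negative, from -1.92 (Pf4) to -0.16 (Itga2b). Over all genes, 5.77% were separated upward and 5.05% downward. All 9 stem cell markers that had a probeset with 1 symbol passed the filter, but 4 of 6 T and NK lymphocyte markers were below it. So were 2 B lymphocyte markers, beside 3 that passed, and 1 erythroid marker, beside 3 that passed. The median difference was -0.04 in the erythroid list, -0.11 in the B lymphocyte list and 0.09 in the T and NK list. In such bulk samples a smaller share of cells that express a gene and less RNA per cell cannot be told apart. The part of these marker differences in the members' values was not tested.

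**Figure D4:**
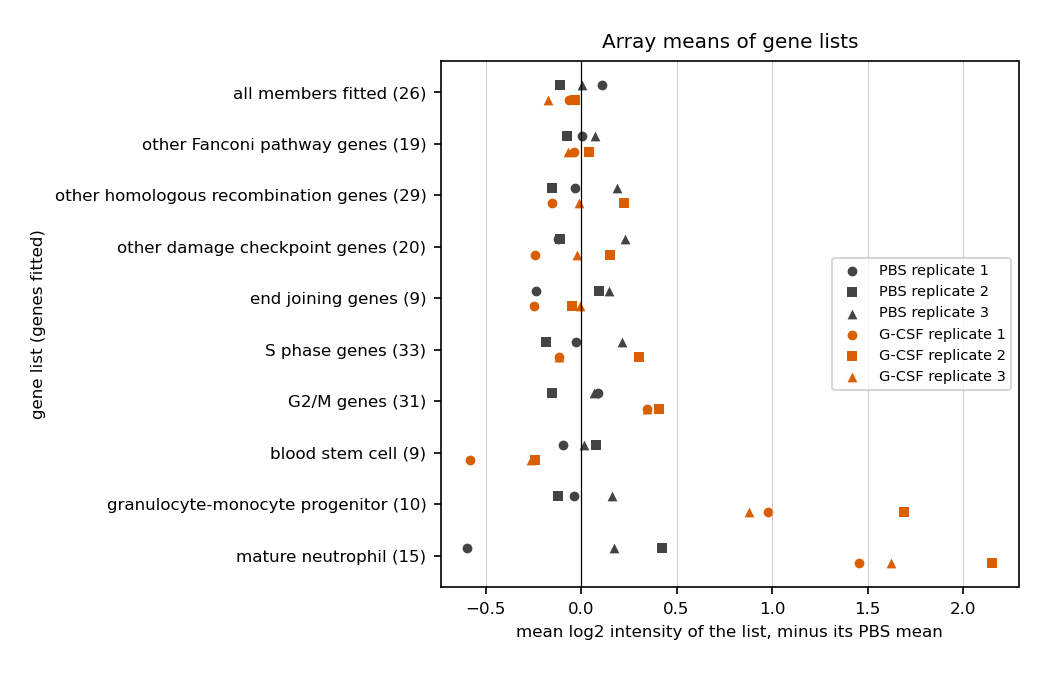
Mean log2 intensity of each gene list in each array, minus the list's PBS mean (horizontal axis), with PBS arrays in grey and G-CSF arrays in orange. The members and the other repair lists overlap between groups around 0, while the G2/M, progenitor and neutrophil lists lie higher with G-CSF and the stem cell list lower.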

How the data were processed

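The deposited values are RMA intensities of 35554 probesets on a linear scale (2.7 to 19069), per the submitters' processing notes and the values; its software, version and genome build are not stated there. Median intensity per array was 56.2 to 61.7. Probesets with 1 symbol in the platform annotation (21789) were kept; 1621 had several symbols and 12144 are unnamed here. A RefSeq table (GRCm38.p6) held 21698 of the 21789 identifiers. After log2, the lowest 25% of these by mean were left out and the brightest probeset stood for each gene. Groups were compared by limma 3.58.1 (R 4.3.3; lmFit, eBayes, no covariate), adjusted by Benjamini-Hochberg over 14994 genes, two-sided, threshold 0.05. On simulated data with normal noise and 50 genes shifted at each size, the fit found 24% of genes shifted by a log2 difference of 1. It found 80% of those shifted by 2. In the real data 0 of 15 mature neutrophil markers were called, with differences up to 3.09 (smallest limma adjusted p = 0.112). The simulated shares may therefore not hold for the real data. The number of arrays limits precision. All members are accounted for by name; other pathway genes are named by the smallest p in each direction of a list, or where any had an unadjusted p under 0.05 by the 2 largest differences. Members and lists were chosen with earlier results of these data known. Alternatives changed the filter, normalization, offset, variance model, array weights, probeset rule, replicate block and each array. Replicate numbers were not treated as pairs. Sequences are RefSeq promoters. Figures were drawn with matplotlib 3.10.9.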

Additional observations from a re-analysis of the deposited data

How the results depend on the processing

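No member passed the adjusted threshold by limma under any of the 15 alternatives (smallest adjusted p = 0.664, with the replicate block), and the members' median difference ran from -0.10 to 0.03. Of 418 recomputed member differences, 384 kept their direction and 34 changed sign, in 14 members. Many of the 384 could not change. The filter, the variance model and the replicate block leave a member's difference as it was, and so does the probeset rule for members with 1 probeset. The sign changes came with array weights, quantile normalization or an array left out. The count of fitted members at an unadjusted p under 0.05 was 0, and 0 to 1 with an array left out, beside 5.33% to 6.88% of all genes. These were Blm without PBS replicate 2, Fancl without PBS replicate 3 and Rad51d without G-CSF replicate 2. Fancb, below the filter, had an unadjusted p of 0.0428 by limma with quantile normalization (adjusted p = 0.82) and of 0.0364 without G-CSF replicate 1 (adjusted p = 0.963), in fits with no filter. The count without overlap was 2 (Fance and Fancg). It was 1 with quantile normalization again, where Fancg overlapped, 3 with the mean over all probesets of a gene, which added Bard1, and 3 with no filter, which added Fancb. It was 3 to 9 with an array left out, where 19.4% to 22.4% of all genes were separated. Groups that do not overlap stay apart when an array is left out. Fance and Fancg therefore stayed in this count by construction, and it could not fall. Array weights turned Fanca to -0.036, Fancf to 0.010, Brca2 to -0.037 and Fancd2 to -0.025, and quantile normalization turned Xrcc3 to 0.035. With an array left out, differences ran from -0.10 to 0.17 for Fanca, -0.075 to 0.20 for Fancc, -0.26 to 0.14 for Fancf, -0.076 to 0.20 for Fancm, -0.30 to 0.30 for Brca1, -0.14 to 0.35 for Brca2 and -0.022 to 0.45 for Rad51b. They ran from -0.071 to 0.080 for Xrcc3, -0.10 to 0.26 for Rad54l, -0.21 to 0.063 for Atm, -0.36 to 0.51 for Chek1, -0.47 to 0.23 for Chek2, -0.22 to 0.18 for Fancd2 and -0.13 to 0.084 for Rad51c. They kept one sign but moved by over 1.5 times in other members too, from -0.41 to -0.12 for Palb2, -0.33 to -0.057 for Brip1, -0.49 to -0.22 for Rad50 and -0.36 to -0.16 for Atr. Apart from the array left out, the cause was not tested. Same-numbered arrays' deviations from their group means correlated by 0.320, 0.009 and 0.159 for replicates 1, 2 and 3. For different numbers the correlations ran from -0.297 to 0.159, so these values do not settle whether the numbers pair the samples. The replicate block gave 0 members called, 0 at an unadjusted p under 0.05 and a median of -0.05. It moved the count of all genes called from 4 to 5. The share of all genes at an unadjusted p under 0.05 by limma moved from 6.04% to 8.07%. Dim signal limits Fancb, Fancd2 and Rad51c most.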

Other observations

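Within each group, Rad50, Chek1 and Usp1 were highest in the arrays where the S phase list had its highest mean, PBS replicate 3 and G-CSF replicate 2 (3 of 26 members, 11.5%, against 13.8% of all genes). The S phase means were 6.91, 6.75 and 7.15 with PBS and 6.82, 7.24 and 6.82 with G-CSF. PBS replicate 1, where Brca1, Chek2 and Fanci were highest among PBS arrays, was thus not the PBS array with the highest S phase mean. Its G2/M mean of 6.32 was close to that of PBS replicate 3 (6.30) and above that of PBS replicate 2 (6.08). More of the 31 G2/M genes were highest in PBS replicate 3 (14) than in PBS replicate 1 (11). A link between either list and the members' values in PBS replicate 1 was not tested.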
